A study of Mus musculus with 16 samples.

Results

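Messenger RNA of 8 genes that mark B cells and antibody-secreting plasma cells was followed in the aortas of 16 mice. The genes are Cd79a, Cd79b, Ms4a1, Jchain, Mzb1, Ighm, Igha and Igkc. They were taken by symbol from the deposited tables, where they make up 8 of 54532 genes, and each symbol had 1 row. Cd79a and Cd79b encode the signaling chains that carry the membrane antibody of the B cell receptor, and Ms4a1 encodes the B cell surface protein CD20. Ighm and Igha encode the constant parts of the IgM and IgA heavy chains, and Igkc encodes the constant part of the kappa light chain. Jchain encodes the joining chain, which links antibody units into polymeric IgM and IgA, and Mzb1 encodes a chaperone of the endoplasmic reticulum that assists antibody assembly and secretion.

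B cells carry their antibody as a membrane receptor, and after activation some mature into plasma cells, which lower their receptor genes and devote much of their RNA to secreted antibody. Each B cell clone joins 1 heavy chain variable segment and 1 light chain variable segment, so a clone and its plasma cell progeny share their segments. In arteries, B cells are known mainly from the adventitia and the fat around the vessel, and IgA plasma cells are best known from mucosal tissue.

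All mice were male C57BL/6J, and the groups differed in surgery and diet. Sham mice kept their kidneys and ate the high-phosphate low-protein diet (HPi-Lp), which contained phosphorus at 2% and protein at 2.5%. Mice with subtotal nephrectomy (5/6 Nx), a model of CKD, were assigned to that diet (5/6 Nx-HPi-Lp), to one holding phosphorus at 2% with protein at 18% (5/6 Nx-HPi-Hp), or to one holding phosphorus at 0.3% with protein at 2.5% (5/6 Nx-LPi-Lp). Surgery was done at 12 weeks of age and feeding began after 2 weeks of recovery. The feeding period is 30 days in the sample labels and 4 weeks in the study's methods. There were 4 mice per group and 1 library per mouse. The whole aorta was ground, so the libraries include any blood, fat or lymphoid tissue that stayed on the vessel. In such bulk RNA, more cells of a type and more RNA per cell cannot be told apart.

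The immunoglobulin genes resemble each other, so the sequence that reads must match is shown for those on which the results turn. Constant gene transcripts of GENCODE vM21 (GRCm38) were compared over windows of 25 bases, and capitals mark bases within a window that another immunoglobulin constant gene also holds. Igha shared 0% of its 2516 windows, as did Ighm, Igkc, Ighd and Ighe, whereas Ighg2c shared 20.6% of its 1190 windows with the other IgG genes. The first 120 bases of Igha and of Ighg2c show the contrast.
Igha: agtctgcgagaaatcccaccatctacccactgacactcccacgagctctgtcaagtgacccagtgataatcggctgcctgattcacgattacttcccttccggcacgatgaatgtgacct
Ighg2c: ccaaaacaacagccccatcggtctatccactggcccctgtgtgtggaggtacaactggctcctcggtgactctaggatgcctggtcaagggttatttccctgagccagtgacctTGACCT
Variable segments overlap more. The last 120 bases of 3 segments, singled out after their values were seen because each led the counts of its locus in 1 library, are given with capitals on bases within a window found in another variable segment.
Igkv14-111: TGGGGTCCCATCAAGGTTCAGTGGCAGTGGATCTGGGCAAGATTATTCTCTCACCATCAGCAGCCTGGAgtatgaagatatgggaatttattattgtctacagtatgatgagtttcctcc
Igkv8-30: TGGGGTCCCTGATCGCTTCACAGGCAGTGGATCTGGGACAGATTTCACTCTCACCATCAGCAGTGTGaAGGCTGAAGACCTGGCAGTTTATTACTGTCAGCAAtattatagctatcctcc
Ighv1-26: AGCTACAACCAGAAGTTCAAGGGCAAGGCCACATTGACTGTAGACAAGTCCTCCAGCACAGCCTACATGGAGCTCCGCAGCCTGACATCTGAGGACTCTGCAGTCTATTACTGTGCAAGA
Over the whole transcript, Igkv14-111 shared 18.6% of its 344 windows, Igkv8-30 shared 48.5% of 344 and Ighv1-26 shared 82.6% of 327. How reads that match several genes were counted is not given in the sources used here, so counts of a heavy chain segment such as Ighv1-26 are uncertain between close copies.

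Igha (ENSMUSG00000095079) lies on chromosome 12 of mm10 from 113254830 to 113260236 and Ighm (ENSMUSG00000076617) on the same chromosome from 113418558 to 113422730, both on the minus strand. Igkc (ENSMUSG00000076609) lies on chromosome 6 from 70726435 to 70726966 on the plus strand, and Jchain (ENSMUSG00000067149) on chromosome 5 from 88519809 to 88527891 on the minus strand. The receptor genes are Cd79a (ENSMUSG00000003379) on chromosome 7 from 24897381 to 24902197, Cd79b (ENSMUSG00000040592) on chromosome 11 from 106311341 to 106314762, and Ms4a1 (ENSMUSG00000024673) on chromosome 19 from 11249675 to 11266241. Mzb1 is ENSMUSG00000024353.

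Library totals ranged from 13659525 to 57276915 counts. Mitochondrially encoded genes took 4.18% to 6.34% of counts in the Sham mice and 9.50% to 29.0% in the 5/6 Nx libraries. The aorta's own markers were present, with smooth muscle genes summing to at least 2260 CPM (counts scaled to library size) in every library. Developing thymocytes have no known place in an aorta, though mature T cells share some of their markers, such as Cd8a. The thymocyte markers summed to 57.7 and 99.3 CPM in Sham replicates 2 and 4 and to 16.1 and 19.3 CPM in Sham replicates 1 and 3. They summed to 3.62 to 7.69 CPM in 5/6 Nx-HPi-Lp mice, and reached 46.7 CPM in 5/6 Nx-HPi-Hp replicate 1 and 38.2 and 41.1 CPM in 5/6 Nx-LPi-Lp replicates 1 and 3. Results of the 8 members against Sham are therefore also given without replicates 2 and 4 where a call changes. With fewer libraries a call can also be lost without a smaller change. Calls of all other genes against Sham are given with the 4 Sham libraries only, and whether they hold without these replicates is not reported. Levels below are CPM after TMM scaling of the 16 libraries together.

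Antibody genes among the 8 members, with Jchain and Mzb1, rose above Sham levels in 5/6 Nx-HPi-Lp mice on the same diet. Cd79a, Cd79b and Ms4a1 did not pass the test. Whether the called genes differed from the others in their change was not tested. The calls of Ighm and Mzb1 did not hold when any single Sham library was left out, as given below. A wider plasma cell list, also given below, was mixed against Sham. There 5 of 14 tested genes rose and 1 fell, with a median log2 fold change of 0.30. Igha, Jchain, Igkc, Ighm and Mzb1 were called higher, which is 5 of the 8 members, against 15.0% of all genes called higher in that comparison. A gene was called when its adjusted p was 0.05 or less and its level differed by 2-fold or more, in the quasi-likelihood test of edgeR, where p was adjusted over all genes tested by the Benjamini-Hochberg method. Against 5/6 Nx-HPi-Hp mice 1 member was called higher (Igha; 5.01% of all genes), and against 5/6 Nx-LPi-Lp mice 3 were (Igha, Jchain and Igkc; 7.90% of all genes). These comparisons share the 5/6 Nx-HPi-Lp libraries.

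Igha showed the largest differences of the 8 genes. Its level was 254, 12.9, 9.12 and 50.3 CPM in 5/6 Nx-HPi-Lp replicates 1 to 4. It was 0.501, 1.35, 0.0902 and 0.949 CPM in the Sham mice, which rests on 13, 31, 2 and 24 counts. In 5/6 Nx-HPi-Hp mice it was 1.61, 2.53, 0.525 and 0.601 CPM, and in 5/6 Nx-LPi-Lp mice 1.14, 2.51, 1.46 and 3.76 CPM. The lowest 5/6 Nx-HPi-Lp mouse was thus above each of the 12 other mice, and replicate 1 stood far above its own group. The log2 fold change was 6.86 (SE 1.27, edgeR adjusted p = 0.00203) against Sham, 5.98 (SE 1.18, adjusted p = 0.0135) against 5/6 Nx-HPi-Hp and 5.18 (SE 1.11, adjusted p = 0.0131) against 5/6 Nx-LPi-Lp. Without replicate 1 it was 5.09, 4.20 and 3.44 in the same order (adjusted p = 0.000760, 0.00830 and 0.00881). Over all alternatives in which Igha was tested, the adjusted p reached at most 0.0348, 0.0452 and 0.0463. It was not tested against Sham or 5/6 Nx-HPi-Hp when at least 10 counts were required in every library.

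Per length, Ighm and Igkc had the highest mean levels of the 8 genes in the Sham mice, at 14.7 and 14.6 FPKM, a unit that divides by both depth and gene length. Ighm was 55.1, 532, 30.8 and 71.9 CPM in 5/6 Nx-HPi-Lp replicates 1 to 4 and 34.6, 29.3, 16.9 and 35.0 CPM in the Sham mice. It was 78.8, 49.2, 164 and 49.9 CPM in 5/6 Nx-HPi-Hp mice and 27.9, 25.3, 43.3 and 42.6 CPM in 5/6 Nx-LPi-Lp mice. Replicate 2 carried most of the 5/6 Nx-HPi-Lp mean, and replicate 3 lay inside the Sham range. Ighm rose against Sham (log2 fold change 2.62, SE 0.82, edgeR adjusted p = 0.0271) and was not called against 5/6 Nx-HPi-Hp (1.02, adjusted p = 0.428) or 5/6 Nx-LPi-Lp (2.34, adjusted p = 0.0722). Without replicate 2 the change against Sham was 0.91 (adjusted p = 0.0407), under the 2-fold threshold, and without any single Sham library the adjusted p was 0.0622 to 0.0772. Leaving out both Sham replicates 2 and 4 gave 2.76 (edgeR adjusted p = 0.161), the highest p over the alternatives, which ran from 0.00817. Against 5/6 Nx-HPi-Hp the difference was -0.70 without replicate 2. Against 5/6 Nx-LPi-Lp it passed without replicate 3 (2.69, adjusted p = 0.0420).

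Igkc was 89.8, 236, 7.51 and 38.3 CPM in 5/6 Nx-HPi-Lp replicates 1 to 4 and 12.6, 10.3, 3.88 and 5.77 CPM in the Sham mice. It was 28.9, 19.1, 68.1 and 16.5 CPM in 5/6 Nx-HPi-Hp mice and 5.85, 7.59, 12.9 and 15.9 CPM in 5/6 Nx-LPi-Lp mice. Replicates 1, 2 and 4 of 5/6 Nx-HPi-Lp mice were above all Sham and all 5/6 Nx-LPi-Lp mice, and replicate 3 was not. The log2 fold change was 3.57 (SE 0.88, edgeR adjusted p = 0.00914) against Sham, 3.17 (SE 0.87, adjusted p = 0.0315) against 5/6 Nx-LPi-Lp and 1.49 (SE 0.84, adjusted p = 0.254) against 5/6 Nx-HPi-Hp. With 5/6 Nx-HPi-Lp replicates 1 and 2 both left out, the change against Sham was 1.52 (adjusted p = 0.0774) and that against 5/6 Nx-LPi-Lp 1.12 (adjusted p = 0.267), the latter the highest p over its alternatives (from 0.00508). Leaving out both Sham replicates 2 and 4 also ended the call against Sham (3.51, adjusted p = 0.105, the highest over the alternatives, from 0.000655). Against 5/6 Nx-LPi-Lp the call was lost without any single 5/6 Nx-LPi-Lp library (adjusted p = 0.0530 to 0.0775) and without 5/6 Nx-HPi-Lp replicate 2 (2.09, adjusted p = 0.0695).

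Among the secretory genes, Jchain was 34.9, 56.4, 2.12 and 7.03 CPM in 5/6 Nx-HPi-Lp replicates 1 to 4 and 0.886, 1.35, 0.406 and 1.11 CPM in the Sham mice. It was 5.86, 4.57, 37.2 and 2.73 CPM in 5/6 Nx-HPi-Hp mice and 1.90, 1.26, 2.11 and 3.09 CPM in 5/6 Nx-LPi-Lp mice. Both groups on phosphorus at 2% after nephrectomy were above every Sham mouse, and each included 1 or 2 mice far above the rest. Jchain rose against Sham by a log2 fold change of 4.79 (SE 0.96, edgeR adjusted p = 0.00315) and against 5/6 Nx-LPi-Lp by 3.60 (SE 0.90, adjusted p = 0.0231), and the difference from 5/6 Nx-HPi-Hp was 1.01 (adjusted p = 0.531). With 5/6 Nx-HPi-Lp replicates 1 and 2 both left out, it was 2.30 against Sham (adjusted p = 0.0118), 1.12 against 5/6 Nx-LPi-Lp (adjusted p = 0.219) and -1.49 against 5/6 Nx-HPi-Hp. The call against 5/6 Nx-LPi-Lp was also lost without any 1 of 5/6 Nx-LPi-Lp replicates 1, 2 and 3 (3.53, 3.39 and 3.60, edgeR adjusted p = 0.0571, 0.0572 and 0.0640). Over the alternatives the adjusted p ran from 4.27e-06 to 0.0475 against Sham and from 0.00123 to 0.219 against 5/6 Nx-LPi-Lp.

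Mzb1 was low throughout, at 1.32, 1.54, 0.397 and 2.45 CPM in 5/6 Nx-HPi-Lp replicates 1 to 4 and 0.462, 0.524, 0.406 and 0.0791 CPM in the Sham mice. It was 1.08, 0, 0.975 and 0.492 CPM in 5/6 Nx-HPi-Hp mice and 0.162, 1.13, 0.583 and 0.381 CPM in 5/6 Nx-LPi-Lp mice. The groups overlapped. It rose against Sham (log2 fold change 1.98, SE 0.68, edgeR adjusted p = 0.0398), a call that 13 of 20 alternatives did not keep, with adjusted p from 0.0148 to 0.204, the highest with both Sham replicates 2 and 4 left out (1.71). Each Sham library and 5/6 Nx-HPi-Lp replicates 1, 2 and 4 were among those whose omission ended it. It was not called against 5/6 Nx-HPi-Hp (1.14, adjusted p = 0.411) or 5/6 Nx-LPi-Lp (1.33, adjusted p = 0.209), and its counts were too low for the test between the other 5/6 Nx groups and between 5/6 Nx-HPi-Hp and Sham.

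The receptor genes were not called in these comparisons. Cd79a was 0.756, 8.59, 0.972 and 7.10 CPM in 5/6 Nx-HPi-Lp replicates 1 to 4, 4.62, 2.67, 0.947 and 1.11 CPM in the Sham mice, 2.80, 4.25, 1.50 and 2.13 CPM in 5/6 Nx-HPi-Hp mice and 1.68, 1.69, 4.15 and 2.28 CPM in 5/6 Nx-LPi-Lp mice. Replicate 1, which had the highest Igha, had the lowest Cd79a of all 16 mice, and replicates 2 and 4 had the highest. Its log2 difference was 0.95 (SE 0.81, edgeR adjusted p = 0.378) against Sham, 0.71 (adjusted p = 0.553) against 5/6 Nx-HPi-Hp and 0.85 (adjusted p = 0.463) against 5/6 Nx-LPi-Lp. Cd79b was 5.80, 5.44, 1.79 and 7.48 CPM in 5/6 Nx-HPi-Lp replicates 1 to 4, against 1.13 to 4.20 CPM in the Sham mice, 2.62 to 5.06 CPM in 5/6 Nx-HPi-Hp mice and 1.14 to 3.08 CPM in 5/6 Nx-LPi-Lp mice. Replicate 3 was the low mouse here too, and the differences of 1.04, 0.40 and 1.20 were not called (adjusted p = 0.126, 0.562 and 0.108). Without replicate 3, Cd79b passed against Sham (1.34, adjusted p = 0.0349) and against 5/6 Nx-LPi-Lp (1.49, adjusted p = 0.0378), which are the lowest adjusted p over the alternatives (up to 0.384 and 0.306).

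Ms4a1 was 0.883, 2.63, 0.662 and 2.77 CPM in 5/6 Nx-HPi-Lp replicates 1 to 4, 0.316 to 1.93 CPM in the Sham mice, 0.163 to 0.820 CPM in 5/6 Nx-HPi-Hp mice and 0.524 to 2.04 CPM in 5/6 Nx-LPi-Lp mice. All groups overlapped. Its differences were 0.85, 1.89 and 0.74 on the log2 scale against these groups in the same order (edgeR adjusted p = 0.331, 0.101 and 0.438).

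**Figure D1:**
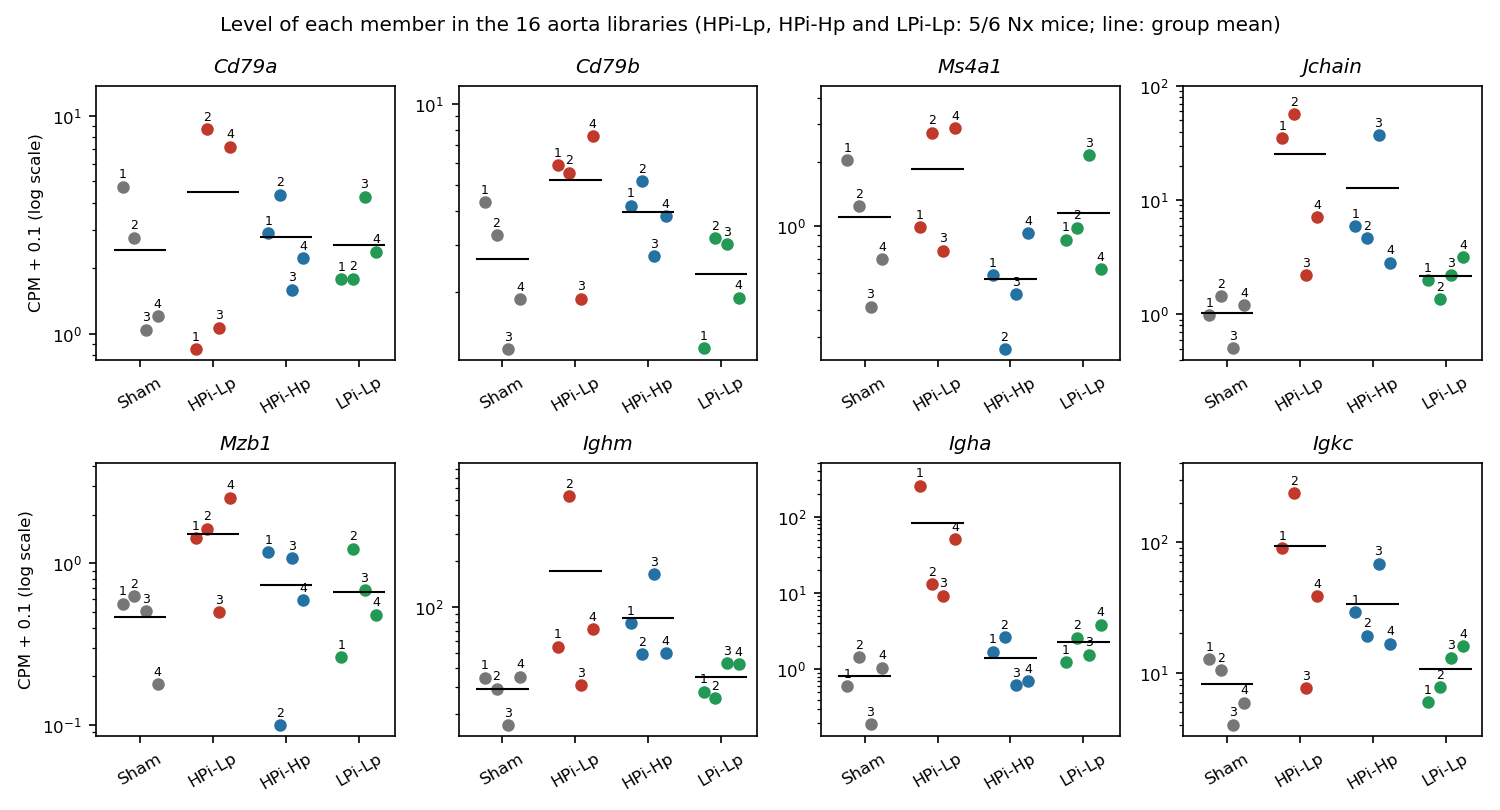
Level of each of the 8 genes in every mouse, as CPM + 0.1 on a log axis, by group, with a line at each group mean and the replicate number at each point. Igha is the gene whose 4 5/6 Nx-HPi-Lp mice all lie above the other 12, while Cd79a, Cd79b and Ms4a1 overlap in all groups.

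The median log2 fold change of the 8 members was 2.30 against Sham, 1.08 against 5/6 Nx-HPi-Hp and 1.84 against 5/6 Nx-LPi-Lp, beside medians of -0.0027, 0.0098 and -0.016 over all genes tested. All 8 were positive in each of these comparisons, from 0.40 for Cd79b to 6.86 for Igha. Against Sham, 2 members had no overlap between the groups (Igha and Jchain), where this held in the higher direction for 18.8% of all genes. Only Igha was free of overlap against 5/6 Nx-HPi-Hp and against 5/6 Nx-LPi-Lp (10.1% and 12.6% of all genes).

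**Figure D2:**
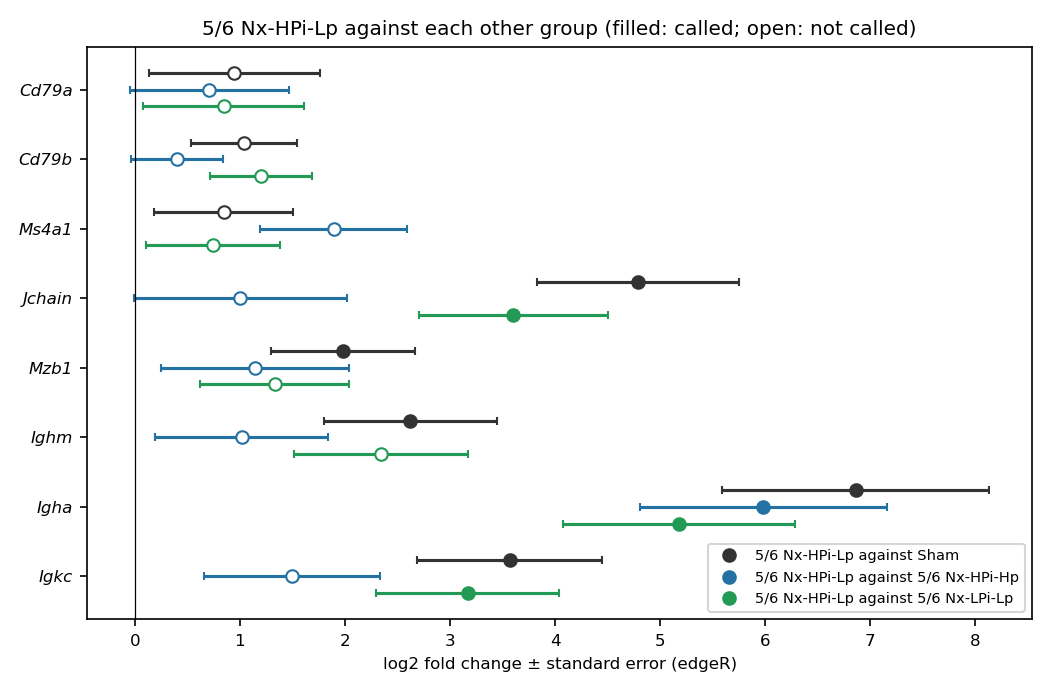
Log2 fold change of each member in the 3 comparisons of 5/6 Nx-HPi-Lp mice, with 1 standard error, from edgeR. The antibody and secretory genes lie to the right of the receptor genes against Sham, and Igha is highest in all 3 comparisons.

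Nephrectomized mice on the other diets were also set against Sham, where surgery and diet differ together. In 5/6 Nx-HPi-Hp mice 3 of the 7 members tested were called higher, against 9.41% of all genes: Jchain (log2 fold change 3.82, edgeR adjusted p = 0.0126), Igkc (2.11, adjusted p = 0.0155) and Ighm (1.64, adjusted p = 0.0169). For each of these every 5/6 Nx-HPi-Hp mouse was above every Sham mouse, as for 13.9% of all genes. Igha differed by 0.92 (adjusted p = 0.345). Without Sham replicates 2 and 4 these calls were lost, with differences of 4.33, 2.08 and 1.79 and edgeR adjusted p of 0.130, 0.139 and 0.132. Without 5/6 Nx-HPi-Hp replicate 3 Jchain differed by 2.27 (adjusted p = 0.0172), and over the alternatives its adjusted p ran from 0.000372 to 0.130. Without Sham replicate 2 the call of Ighm was also lost (1.64, adjusted p = 0.0508), as it was with all 16 libraries in a joint fit (1.64, edgeR adjusted p = 0.0859). That of Jchain was lost with limma on log2(FPKM + 1) (1.65, adjusted p = 0.0542).

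In 5/6 Nx-LPi-Lp mice 1 of the 8 was called against Sham, Jchain (log2 fold change 1.24, edgeR adjusted p = 0.0407), against 8.79% of all genes, and 15 of 20 alternatives did not keep the call, among them the omission of any Sham library and of 5/6 Nx-LPi-Lp replicates 1, 3 and 4. With both Sham replicates 2 and 4 left out it was 1.76 (edgeR adjusted p = 0.0905). Igha differed by 1.70 (adjusted p = 0.0632). For 5/6 Nx-HPi-Hp against 5/6 Nx-LPi-Lp, edgeR called 0 of 7 members and 0.00% of all genes, with an unadjusted p under 0.05 for 3 members and for 8.96% of all genes. Ighm and Igkc were higher in every 5/6 Nx-HPi-Hp mouse than in any 5/6 Nx-LPi-Lp mouse, as were 2.93% of all genes. DESeq2 called 1 member there, Igkc (1.66, adjusted p = 0.0418, against 0.865 at the highest over the alternatives).

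Ordered by group mean, Igha ran from 81.6 ± 117 CPM (SD, n = 4) in 5/6 Nx-HPi-Lp to 2.22 ± 1.19 in 5/6 Nx-LPi-Lp, 1.32 ± 0.949 in 5/6 Nx-HPi-Hp and 0.724 ± 0.548 in Sham, and of these neighbors only the first pair differed beyond the test's threshold. Ighm ran from 173 ± 241 CPM in 5/6 Nx-HPi-Lp to 85.5 ± 54.2 in 5/6 Nx-HPi-Hp, 34.8 ± 9.47 in 5/6 Nx-LPi-Lp and 29.0 ± 8.45 in Sham. Igkc had the same order, with 93.0 ± 101, 33.2 ± 23.9, 10.5 ± 4.63 and 8.13 ± 4.00 CPM. No neighboring pair was called for Ighm or Igkc. Jchain, with 25.1 ± 25.4, 12.6 ± 16.5, 2.09 ± 0.762 and 0.939 ± 0.403 CPM in that order, had 1 called step, from 5/6 Nx-LPi-Lp to Sham. No neighbors were called for Cd79a, Cd79b, Ms4a1 or Mzb1.

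Per transcript length, the composition of the antibody RNA differed between mice. The share of Igha in the summed FPKM of the heavy chain constant genes was 72.3%, 1.64%, 15.5% and 29.5% in 5/6 Nx-HPi-Lp replicates 1 to 4. It was 0.90%, 2.82%, 0.35% and 1.73% in the Sham mice, 1.33%, 2.84%, 0.22% and 0.81% in 5/6 Nx-HPi-Hp mice and 2.50%, 5.85%, 2.17% and 5.44% in 5/6 Nx-LPi-Lp mice. Replicate 2 of 5/6 Nx-HPi-Lp mice lay within the range of the other groups, and its Ighm was the highest of all 16 mice. Its Igha level, 4.97 FPKM, was still above that of the other groups. The group means were 29.7% ± 30.6 (SD, n = 4) in 5/6 Nx-HPi-Lp, 1.45% ± 1.07 in Sham, 1.30% ± 1.12 in 5/6 Nx-HPi-Hp and 3.99% ± 1.92 in 5/6 Nx-LPi-Lp, and no test was applied to shares.

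Ighm made up 86.3% to 94.0% of the heavy chain FPKM in the Sham mice and 22.2%, 95.5%, 74.0% and 59.6% in 5/6 Nx-HPi-Lp replicates 1 to 4. The 4 IgG genes together reached at most 15.7%, in 5/6 Nx-HPi-Hp replicate 2, and Ighe was at 0 in every 5/6 Nx-HPi-Lp and 5/6 Nx-HPi-Hp library. Kappa made up 79.0% to 97.0% of the light chain FPKM over all mice. The ratio of Igkc to Cd79a FPKM, antibody against receptor, was 325, 75.4, 21.2 and 14.8 in 5/6 Nx-HPi-Lp replicates 1 to 4 and 7.44 to 14.3 in the Sham mice. It was 28.3, 12.3, 124 and 21.2 in 5/6 Nx-HPi-Hp mice and 8.50 to 19.0 in 5/6 Nx-LPi-Lp mice. Replicates 2, 3 and 4 of 5/6 Nx-HPi-Lp mice thus lay within the range of the other nephrectomized groups, and only replicate 1 lay above it.

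**Figure D3:**
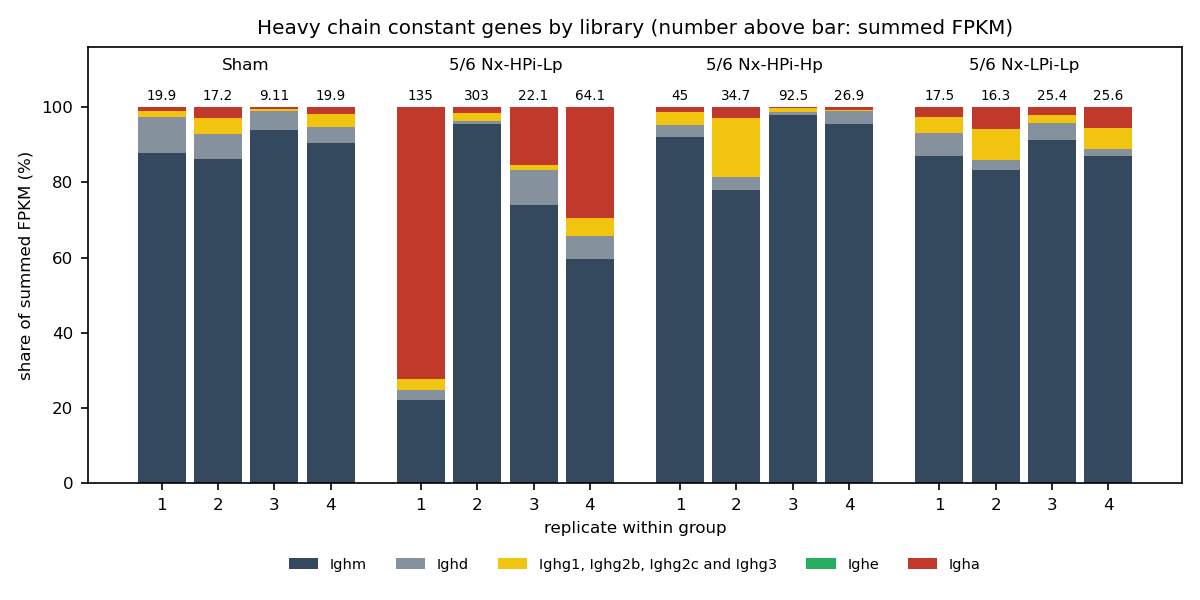
Share of each heavy chain constant gene in their summed FPKM, in percent, for every mouse by group. Igha takes 72.3% in 5/6 Nx-HPi-Lp replicate 1 and 1.64% in replicate 2, and Ighm dominates in the other groups.

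Of the 12 immunoglobulin constant genes, 9 could be tested against Sham and 6 rose, against 15.0% of all genes. The 3 risen genes that are not members were Ighd, Ighg2b and Iglc1. Ighd, the IgD heavy chain of mature B cells, was 6.37, 5.25, 3.84 and 7.35 CPM in 5/6 Nx-HPi-Lp replicates 1 to 4 and 0.902 to 3.81 CPM in the Sham mice. The lowest 5/6 Nx-HPi-Lp mouse was thus only just above the highest Sham mouse. Its log2 fold change was 1.45 (SE 0.42, edgeR adjusted p = 0.0202) against Sham, 1.46 (SE 0.35, adjusted p = 0.0266) against 5/6 Nx-HPi-Hp and 1.98 (SE 0.42, adjusted p = 0.0133) against 5/6 Nx-LPi-Lp. Ighg2b (2.41, adjusted p = 0.0375) and the lambda gene Iglc1 (2.15, adjusted p = 0.0418) rose against Sham with overlapping values. Ighg2c, at 2.21, 5.48, 0 and 1.10 CPM in 5/6 Nx-HPi-Lp replicates 1 to 4, did not pass (2.98, adjusted p = 0.0752). Nor did the lambda genes Iglc2 (2.10, edgeR adjusted p = 0.0634) and Iglc3 (1.54, adjusted p = 0.318). Counts of Ighg1, Ighg3 and Ighe were too low for the test against Sham.

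The variable segments behind these chains were counted as a description, with no test. The 160 kappa segments held 642, 1540, 175 and 206 counts in 5/6 Nx-HPi-Lp replicates 1 to 4, against 12 to 108 in the other 12 mice. Scaled to the library total, this was 41.0, 26.9, 3.76 and 13.7 CPM against 0.595 to 5.94 CPM, so replicate 3, a deep library, lay within the range of the other mice. In replicate 1, Igkv14-111 alone took 561 of 642 counts (87.4%, 95% Wilson interval 84.6% to 89.7%). In replicate 2, Igkv8-30 took 1019 of 1540 (66.2%, interval 63.8% to 68.5%). The leading segment was a different one in each 5/6 Nx-HPi-Lp mouse, with Igkv17-121 at 80 of 175 counts (45.7%) in replicate 3 and Igkv2-112 at 58 of 206 (28.2%) in replicate 4. Igkv14-111 had at most 21 counts in any other library and 0 in 9 of 16, and Igkv8-30 had at most 4 in any other library and 0 in 14 of 16. The intervals cover counting error only, since reads without molecular identifiers are not independent molecules. The shares are of the counts assigned to segments. These 642, 1540, 175 and 206 counts stood beside 1425, 13551, 340 and 594 counts on Igkc in replicates 1 to 4. Segment counts were thus lowest relative to Igkc in replicate 2, and which segments its remaining kappa RNA carried is not known.

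Heavy chain segments had fewer counts. The 185 segments summed to 169, 1086, 44 and 165 counts in 5/6 Nx-HPi-Lp replicates 1 to 4 and to 7 to 88 in the other mice. Scaled to the library total, replicates 1, 2 and 4 had 10.8, 19.0 and 11.0 CPM and replicate 3 had 0.946 CPM, which lay within the 0.423 to 4.08 CPM of the other mice. Ighv1-26 took 606 of 1086 counts in replicate 2 (55.8%, interval 52.8% to 58.7%) and had at most 4 counts in any other library, while Ighv5-6 led replicate 1 with 61 of 169 (36.1%). Replicate 2, where Igkv8-30 and Ighv1-26 led, had the highest Ighm, and replicate 1, where Igkv14-111 and Ighv5-6 led, had the highest Igha. In replicate 2 the 1086 heavy segment counts stood beside 30512 counts on Ighm, so the share of Ighv1-26 is of the assigned counts only. Leading shares at totals as small as those of the other groups carry wide intervals, such as 76.2% (54.9% to 89.4%) for 16 of 21 heavy segment counts in 5/6 Nx-HPi-Hp replicate 2. Among the 11 libraries with at least 50 kappa segment counts, the leading share ran from 11.3% to 87.4%.

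**Figure D4:**
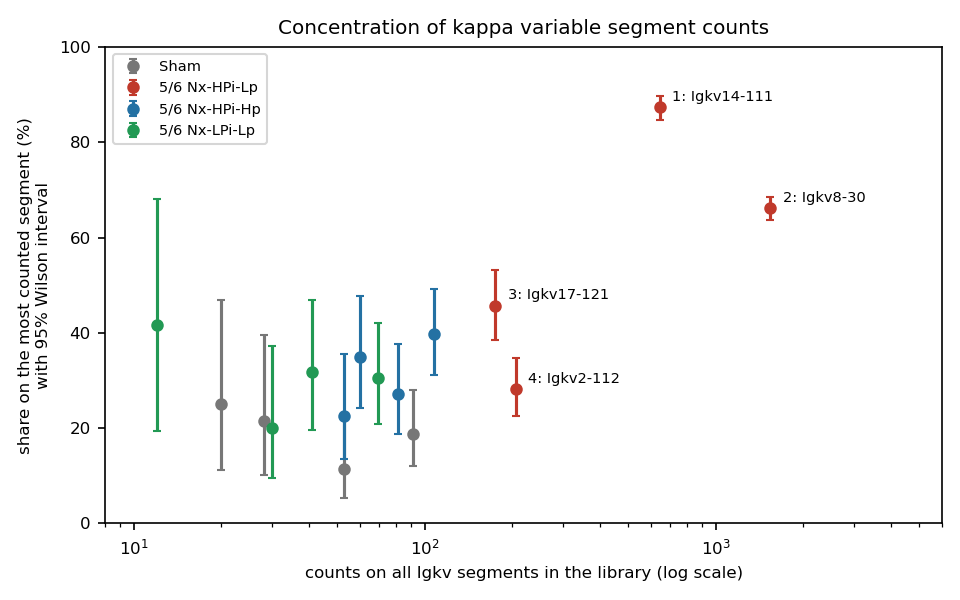
Share of the most counted kappa variable segment (percent, with its 95% Wilson interval) against the counts on all kappa segments (log axis), 1 point per mouse, colored by group. In 5/6 Nx-HPi-Lp replicates 1 and 2 a leading segment holds 87.4% and 66.2% of 642 and 1540 counts.

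B cell identity genes were described next, as a list of 20 that holds none of the 8 members. Against Sham, 17 were tested and 5 rose, against 15.0% of all genes (median log2 fold change 1.24 over the list). Pax5, the transcription factor that keeps B cell identity, was 8.32, 9.88, 5.81 and 15.5 CPM in 5/6 Nx-HPi-Lp replicates 1 to 4 and 0.767 to 2.47 CPM in the Sham mice, 1.09 to 5.39 CPM in 5/6 Nx-HPi-Hp and 0.758 to 2.40 CPM in 5/6 Nx-LPi-Lp. Every 5/6 Nx-HPi-Lp mouse was above all others. Its log2 fold change was 2.81 (SE 0.45, edgeR adjusted p = 0.000941) against Sham, 1.82 (SE 0.55, adjusted p = 0.0551) against 5/6 Nx-HPi-Hp and 2.85 (SE 0.44, adjusted p = 0.00371) against 5/6 Nx-LPi-Lp. Against 5/6 Nx-HPi-Hp, 1 of 14 tested genes rose (Ighd), which is near the share of all genes (5.01%). Against 5/6 Nx-LPi-Lp 4 of 15 did, beside 7.90% of all genes. The medians were 1.17 and 1.07. These shares of all genes also stand beside the counts of risen genes in the lists that follow.

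In the list of 14 B cell receptor signaling genes, all tested, 10 rose against Sham, 8 against 5/6 Nx-HPi-Hp and 9 against 5/6 Nx-LPi-Lp, with medians of 2.30, 1.33 and 1.77. Cd81 went lower against Sham (-0.82, edgeR adjusted p = 0.000135), short of the 2-fold threshold. Every 5/6 Nx-HPi-Lp mouse was below every Sham mouse for Cd81. The list's summed level overlapped between 5/6 Nx-HPi-Lp (370 to 700 CPM) and Sham (445 to 508 CPM). The largest change was in Fcgr2b, the inhibitory IgG receptor of B cells and myeloid cells (3.51, 2.77 and 3.20, edgeR adjusted p = 5.8e-05, 0.00297 and 0.00137). Most of these genes, among them Syk, Lyn and Btk, are also used by macrophages, of whose 10 markers 10, 9 and 10 rose in the same comparisons, and which summed to 815 to 2812 CPM in 5/6 Nx-HPi-Lp mice against 261 to 395 CPM in Sham. How much of the list's change came from macrophages was not tested. The 9 receptors of immunoglobulin showed 5 risen genes in each comparison, of 7, 8 and 7 tested, led by the IgG receptor Fcgr4 of myeloid cells (3.81, 3.02 and 3.97).

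In the plasma cell program, 14 of 16 genes were tested against Sham, 5 rose and 1 fell (median 0.30). Cd38, a surface enzyme of plasma cells and other leukocytes, rose by 2.97 (SE 0.28, edgeR adjusted p = 5.5e-05), and Tent5c, which lengthens the tails of antibody mRNA, fell by 1.22 on the log2 scale (SE 0.18, adjusted p = 0.000490). Tnfrsf13b, the receptor TACI for B cell survival factors, was the most changed against 5/6 Nx-HPi-Hp (2.75, adjusted p = 0.00562) and against 5/6 Nx-LPi-Lp (2.75, adjusted p = 0.00756), where 3 of 15 tested genes rose each time (medians 0.43 and 0.80). Several genes of the list are expressed in other cells, and its summed level overlapped between 5/6 Nx-HPi-Lp (568 to 927 CPM) and Sham (608 to 730 CPM).

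Signals that attract or sustain B cells gave 3 risen genes of 8 tested in each of the 3 comparisons. Cxcl13, the chemokine that draws B cells into follicles, was 65.2, 53.5, 43.2 and 56.1 CPM in 5/6 Nx-HPi-Lp replicates 1 to 4, and at most 2.99 CPM in any other mouse. Its values were close to each other within the group, unlike those of the antibody genes. The log2 fold change was 6.01 (SE 0.41, edgeR adjusted p = 1.5e-05) against Sham, 5.05 (SE 0.35, adjusted p = 0.000339) against 5/6 Nx-HPi-Hp and 4.65 (SE 0.27, adjusted p = 0.000204) against 5/6 Nx-LPi-Lp. The other risen genes were the B cell survival factor Tnfsf13b (2.20, 2.19 and 2.39) and the chemokine Cxcl12 (1.62, 1.96 and 1.96), named after their values were seen.

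**Figure D5:**
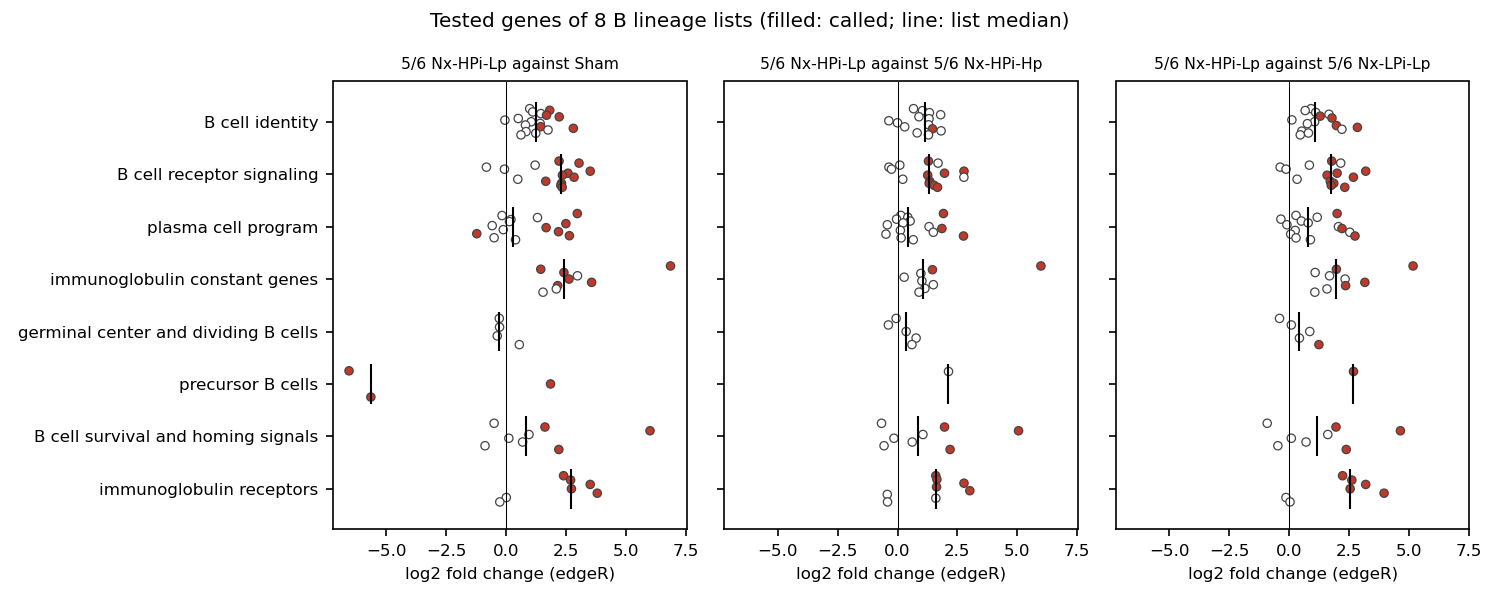
Log2 fold change (edgeR) of each tested gene of 8 lists in the comparisons of 5/6 Nx-HPi-Lp mice with the 3 other groups. The lists cover B cells, plasma cells, antibody genes, and signals and receptors that other cells also express. Points of called genes are filled, and a line marks each list median. The receptor signaling list has 10, 8 and 9 risen genes, and the germinal center list has medians of -0.28, 0.36 and 0.43.

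Germinal center and dividing B cell genes gave 0 edgeR calls of 4 tested against Sham and 0 of 5 against 5/6 Nx-HPi-Hp, with 0 unadjusted p under 0.05 in both, and 1 of 5 against 5/6 Nx-LPi-Lp, the homing receptor S1pr2 (1.25, adjusted p = 0.0453). Of 3 precursor B cell genes tested against Sham, Dntt (-6.56, adjusted p = 0.00233) and Rag1 (-5.65, adjusted p = 0.00313), which thymocytes also express, fell, and Il7r rose (1.85, adjusted p = 0.0366). Il7r, the interleukin 7 receptor of precursor B cells and of T cells, also rose against 5/6 Nx-LPi-Lp (2.66, adjusted p = 0.0321). In the thymocyte list 6 of 8 tested genes fell against Sham, with sums of 3.62 to 7.69 CPM in 5/6 Nx-HPi-Lp and 16.1 to 99.3 CPM in Sham. In the T cell list 2 of 12 genes fell against Sham and 1 fell against 5/6 Nx-HPi-Hp, led by Lck (-2.19 and -1.32, edgeR adjusted p = 0.0168 and 0.0452).

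Markers of other tissue were read beside these lists. Of all genes, 15.0%, 5.01% and 7.90% were called higher in the 3 comparisons, and some of the counts below are near these shares. Of the 8 markers of lymph node stroma, Glycam1, of lymph node venules, was at 0 in 13 of 16 libraries and had 13 and 2 counts in 5/6 Nx-HPi-Lp replicates 3 and 4. The list's sum in 5/6 Nx-HPi-Lp mice was 49.4 to 70.2 CPM, which Cxcl13 made up for the most part. In the 3 comparisons 2 of 5, 1 of 5 and 1 of 3 tested genes rose, with medians of 0.47, -0.36 and -0.66. Cxcl13 was the risen gene in each, and Madcam1 also rose against Sham (4.30, edgeR adjusted p = 0.00252). Smooth muscle genes fell (7 of 7, 6 of 7 and 7 of 7 in the 3 comparisons), led by the myosin gene Myh11 (-2.98, -2.25 and -2.20), with sums of 2260 to 5105 CPM in 5/6 Nx-HPi-Lp and 21935 to 26034 CPM in Sham. Adipocyte genes rose against Sham (8 of 9), led by Cfd (4.43), with 0 of 9 called by edgeR against 5/6 Nx-HPi-Hp (unadjusted p under 0.05 for 0) and 2 of 9 against 5/6 Nx-LPi-Lp. Of the plasmacytoid dendritic cell list 2 of 7, 1 of 6 and 1 of 7 tested genes rose, led by Irf8 (2.54 against Sham). Of the endothelial list 3, 0 and 0 of 6 tested genes rose, led by Emcn (2.00), and of the mesothelial list 1, 0 and 0 of 6 (Wt1, 1.50). The endothelial gene Pecam1 went lower against Sham (-0.55, edgeR adjusted p = 0.0114), short of the 2-fold threshold. The endothelial sum overlapped between 5/6 Nx-HPi-Lp (689 to 859 CPM) and Sham (612 to 966 CPM). In the lists with 0 calls the unadjusted edgeR p was under 0.05 for 2 and 2 endothelial and for 1 and 0 mesothelial genes. The part of these tissues in the members' levels was not tested.

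Likeness across the 16 libraries was taken as Pearson's r of log2(CPM + 1) with each of 17443 genes, as a description without a test. Closest to Cd79a were Spib (r = 0.877), H2-Ob (0.867), Il9r (0.859), Gm26779 (0.818) and Cxcr5 (0.792), of which Spib, H2-Ob and Cxcr5 are B cell genes of the list above. Cd79a reached 0.70 with Ms4a1 and 0.63 with Cd79b, and 0.23 with Jchain and 0.09 with Igha. Closest to Jchain among genes that are not members were Hlx (0.858), Gm4129 (0.854), Gpr3 (0.851), 4833418N02Rik (0.850) and Hhex (0.844), and among members Igkc (0.956) and Ighm (0.871). The libraries share group, depth and tissue makeup.

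The same measure was taken for Igha after its values were seen. Its closest genes were Gpr85 (0.968), Csmd1 (0.952), 1500011B03Rik (0.946), AW551984 (0.943) and Slitrk5 (0.942), of which Gpr85, Csmd1 and Slitrk5 are known from neurons. A list of 10 sympathetic neuron genes, also added then, summed to 1832, 81.6, 350 and 1384 CPM in 5/6 Nx-HPi-Lp replicates 1 to 4 and to 86.3 to 132 CPM in the Sham mice. Within 5/6 Nx-HPi-Lp mice the list was highest in replicates 1 and 4, as Igha was, and lowest in replicate 2. There Dbh, the enzyme that makes noradrenaline, was at 0 CPM, against 274, 43.6 and 217 CPM in replicates 1, 3 and 4, while Igha was at 12.9 CPM, above all 12 mice of the other groups. In 5/6 Nx-HPi-Hp the list reached 385 CPM in replicate 4, where Igha was 0.601 CPM, and 309 CPM in replicate 2, where Igha was 2.53 CPM, the highest of its group. In 5/6 Nx-LPi-Lp it was highest in replicate 4 (281 CPM), as was Igha (3.76 CPM). What part of the Igha difference moves with such tissue was not tested.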

How the data were processed

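The authors deposited 2 tables of 54532 genes in 16 aorta libraries, 4 per group and 1 per mouse. One holds read counts, which the authors made by cleaning the reads, aligning them to mm10 with HISAT2 and counting with featureCounts 1.5.0-p3 (per the labels' processing notes and the study's methods). The other holds FPKM, which the authors deposited as computed from those counts and gene length. Strand and multiple-match settings of the counting are not given in the sources used here. Totals were 13659525 to 57276915 counts, and intervals cover counting error only. Replicates differed by a chi-square of at least 20.0 per gene, so none were copies of one library.

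The 8 members and all lists were chosen with earlier results of these data known. Each pair of groups (8 libraries) was tested with edgeR 4.0.16 in R 4.3.3 (filterByExpr, TMM, quasi-likelihood test, Benjamini-Hochberg adjustment over all genes tested), with surgery and diet as labelled and no covariate, and a call needed adjusted p of 0.05 or less and a 2-fold change. The CPM values shown are TMM-scaled over the 16 libraries. All members and the 12 constant genes are named, from each other list the called gene with the largest change in each direction in each comparison of 5/6 Nx-HPi-Lp, and the 5 genes most like Cd79a and Jchain by r of log2(CPM + 1). The variable segments printed, the genes most like Igha, the sympathetic neuron list and a few single genes (Dbh, Rag1, Madcam1, Tnfsf13b, Cxcl12, Cd81, Pecam1) were added after their values were seen. The test was tried on simulated data with 200 changed genes: at a log2 fold change of 2 it called 75.5% (5/6 Nx-HPi-Lp against Sham), 71.5% (against 5/6 Nx-HPi-Hp) and 69.0% (against 5/6 Nx-LPi-Lp). Unchanged genes gave 8, 6 and 8 false calls in the same order. The changed genes were drawn from all genes tested, so these shares do not describe the members, several of which were low or varied widely within a group. Constant gene and variable segment sequences are from GENCODE vM21, whose coordinates equal those in the tables for 7 of the 8 members, not for Mzb1.

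Alternatives tried were DESeq2 1.42.0, scaling by RLE or by total count, limma 3.58.1 on FPKM values (mean above 0.5) after adding 1 or 0.1 and taking log2, a minimum of 10 counts per library or no minimum, a replicate block, a joint fit of the 16 libraries, no fold threshold, mitochondrial genes left out and each library left out. Added after seeing the data were libraries thinned to the lowest total, 5/6 Nx-HPi-Lp replicates 1 and 2 left out, and Sham replicates 2 and 4 left out. Tables and plots were made in Python 3.11.15 with pandas 2.3.3, scipy 1.17.1 and matplotlib 3.10.9.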

Additional observations from a re-analysis of the deposited data

Results flagged for a closer look

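In 3 of the 32 sets of 4 libraries (8 genes in 4 groups), 1 library stood apart from the others of its group. Each is given by the gap to its nearest neighbor as a share of the group's whole range, which passed Dixon's 95% critical value for 4 samples. That value is passed in about 1 in 20 sets by chance only for independent sets of normally distributed values. The values here were CPM not put on a log scale, and the sets share mice, so no comparison with chance is drawn. Ighm was 532 CPM in 5/6 Nx-HPi-Lp replicate 2 and 30.8 to 71.9 CPM in the rest of that group (0.918). Igha was 254 CPM in 5/6 Nx-HPi-Lp replicate 1 and 9.12 to 50.3 CPM in the rest (0.832). Jchain was 37.2 CPM in 5/6 Nx-HPi-Hp replicate 3 and 2.73 to 5.86 CPM in the rest (0.909).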

How the results depend on the processing

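Of 930 recomputed log2 fold changes of members with an adjusted p, 837 kept their direction and their side of the threshold. A call was lost by 62 and gained by 9, and 22 changed sign. Where a value changed, the cause was not tested. Settings that leave out libraries also leave fewer to test, so a call can be lost without a smaller change. With Sham replicates 2 and 4 left out, Ighm, Igkc and Mzb1 lost their calls in 5/6 Nx-HPi-Lp at changes of 2.76, 3.51 and 1.71. With all libraries these were 2.62, 3.57 and 1.98. Members called against Sham in 5/6 Nx-HPi-Lp (5 as reported) numbered 2 with at least 10 counts in every library, with 5/6 Nx-HPi-Lp replicates 1 and 2 left out or with Sham replicates 2 and 4 left out, 3 with the replicate block or limma on log2(FPKM + 1), and 3 to 6 with 1 library left out (3 without any Sham library). Against 5/6 Nx-HPi-Hp (1) the number was 0 with at least 10 counts in every library, where Igha was not tested, and 1 to 1 with 1 library left out. Against 5/6 Nx-LPi-Lp (3) it was 1 with the replicate block, with limma on either scale and with 5/6 Nx-HPi-Lp replicates 1 and 2 left out, and 1 to 5 with 1 library left out (1 without 5/6 Nx-LPi-Lp replicate 1, 2 or 3, and 5 without 5/6 Nx-HPi-Lp replicate 3). For 5/6 Nx-HPi-Hp against Sham (3) it was 0 without Sham replicates 2 and 4 and 2 to 3 with 1 library left out. For 5/6 Nx-LPi-Lp against Sham (1) it was 0 with total count scaling, no filter, at least 10 counts, all 16 libraries, limma on either scale, thinned libraries or Sham replicates 2 and 4 left out, 2 with DESeq2, and 0 to 1 with 1 library left out. For 5/6 Nx-HPi-Hp against 5/6 Nx-LPi-Lp (0) it was 1 with DESeq2 and 0 to 0 with 1 library left out.

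No value that changed sign had been called. With 5/6 Nx-HPi-Lp replicates 1 and 2 left out, the log2 differences from 5/6 Nx-HPi-Hp were -1.49 for Jchain, -0.74 for Ighm and -0.55 for Igkc, and with 1 library left out Ighm ran from -0.70 to 1.54. With Sham replicates 2 and 4 left out, Cd79a was -0.0071 in 5/6 Nx-HPi-Hp and -0.11 in 5/6 Nx-LPi-Lp, and Ms4a1 was -0.041 in 5/6 Nx-LPi-Lp. With total count scaling, which moved the median of all genes against Sham to -0.22 in 5/6 Nx-LPi-Lp, to -0.19 in 5/6 Nx-HPi-Hp and to -0.14 in 5/6 Nx-HPi-Lp, Cd79a was -0.082 and Ms4a1 -0.099 in 5/6 Nx-LPi-Lp. With 1 library left out, Cd79a ran from -0.058 to 0.82 in 5/6 Nx-HPi-Hp and from -0.23 to 0.71 in 5/6 Nx-LPi-Lp against Sham and from -0.21 to 0.48 between these 2 groups, and in 5/6 Nx-LPi-Lp against Sham Cd79b ran from -0.36 to 0.22 and Ms4a1 from -0.39 to 0.68. The mean Igha share of heavy chain FPKM in 5/6 Nx-HPi-Lp ran from 15.6% to 39.1% with 1 library left out.

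Same-numbered libraries did not deviate together in every pair of groups (correlations from -0.276 to 0.536 over 24 pairs), so the numbers were not taken to pair the mice. The replicate block ended the calls of Mzb1 and Ighm against Sham and of Jchain and Igkc against 5/6 Nx-LPi-Lp in 5/6 Nx-HPi-Lp, and in 5/6 Nx-LPi-Lp against Sham it ended that of Jchain and gave one for Igha (1.85, edgeR adjusted p = 0.0393). With 4 libraries per group and some members at 0 to 31 counts, as Mzb1 and Igha were in some groups, small differences were not detectable.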
